A study of Mus musculus with 8 samples.

Results

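The genes described here are 30 genes of cholesterol synthesis, its regulation, and the transport and hydroxylation of sterols, measured in primary mouse hepatic stellate cells. They were chosen by name from knowledge of the pathway, with earlier results of these data known. The list holds 19 enzymes of synthesis, 5 regulators, 4 genes of transport, efflux and esterification, and 2 genes of oxysterol metabolism. Of the 16593 genes named on the arrays, 26 were members, with 37 of the 25697 probes, and Acat2, Mvk, Fdft1 and Soat1 were not analysed here. Cells came from 6-week-old mice of the B6/129 background labelled female, either IL15Ra-knockout (4 samples), in which the receptor subunit that binds interleukin-15 is missing, or wild type (control, 4 samples). They were isolated by pronase and collagenase perfusion and a density gradient, kept in medium with serum, and taken at passage 0. Each sample was hybridised to 1 array of a 1-colour bead platform. The labels name no Cre or promoter for the knockout and leave unsaid whether each sample is a different mouse. The p-values therefore reflect only how far these samples scatter, and that scatter could be technical.

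Cholesterol is built from acetyl-CoA through mevalonate, isoprenoids, squalene and lanosterol by enzymes of the cytosol, peroxisome and endoplasmic reticulum. When sterols are scarce, the escort protein Scap carries the transcription factor SREBP-2, the product of Srebf2, to the Golgi, where it is cut and freed to switch on nearly every enzyme of the route. When sterols are plentiful, Insig proteins hold Scap back, while oxysterols activate the LXR receptors, which raise the exporters Abca1 and Abcg1. In hepatic stellate cells free cholesterol is known to sensitise the cells to fibrogenic signals.

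The number of probes above background, those with a detection p under 0.05, ranged from 6760 to 10516 per array, with means of 8812 ± 1300 for knockout and 8983 ± 1495 for control (SD, n = 4 each). A two-sided exact permutation test gave p = 0.914. Control 3 (6760), knockout 1 (7765) and knockout 4 (7830) had the fewest, and the other 5 arrays had at least 9135. Differences without these arrays are also given for some of the genes below. None of the 4 Il15ra probes was above background on any array, so the targeted gene checks no label. Of 16 probes for Y-linked genes, 3 were above background on all 8 arrays, which goes against the label of female mice. Of the stellate cell markers 9 of 13 with a probe were measured, among them Des, Reln, Dcn and Acta2, while Lrat, Rgs5 and Hand2 were not above background on any array. All 13 macrophage markers with a probe were measured too, including Adgre1, so the values are for cultures that also hold macrophage transcripts. In such bulk samples, fewer cells of a type and less RNA per cell cannot be told apart.

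Values below are background-corrected, quantile-normalised log2 signals with an offset of 16 signal units, which draws the folds of dim genes towards 1, and a difference is always knockout minus control. A probe was tested if it was above background on 4 or more of the 8 arrays. This kept 23 member probes for 20 genes. Of the other 14 member probes, 11 were not above background on any array, and the genes left without a kept probe were Mvd, Ggps1, Cyp51, Tm7sf2, Dhcr7 and Srebf1. The SREBP-1 gene Srebf1 was not above background with either of its probes. Adjusted p-values are from limma with Benjamini-Hochberg adjustment over all 9433 kept probes.

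1 member passed the test. Cyp7b1, the hydroxylase that clears oxysterols, a step of the alternative route of bile acid synthesis, fell 3.37-fold in the knockout cultures. Among the synthesis enzymes, Idi1 and Lss lay higher on all 4 knockout arrays than on any control array but did not pass. No regulator or exporter passed. Over all kept probes 0.53% passed, 0.233% higher and 0.297% lower, and among the members 1 of 23 probes did, lower. The groups did not overlap at 5.02% of all kept probes, 3.12% with the knockout above and 1.91% with it below, against 3 of the 23 member probes, 2 above and 1 below. The median log2 difference was 0.03 for the 11 measured synthesis enzymes, 0.06 for the 9 other measured members and 0.03 over all kept probes.

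The deposited signals of Cyp7b1, before any normalisation, were 177.5, 259.7, 272.1 and 268.2 on knockout arrays 1 to 4 and 595.1, 974.4, 591.3 and 1186.7 on control arrays 1 to 4. On the log2 scale these became 7.41, 7.27, 7.49 and 7.87 in the knockout and 8.72, 9.70, 9.12 and 9.50 in the control. All 4 knockout values lay below all 4 control values, and the probe was above background on all 8 arrays. The means were 7.51 ± 0.26 and 9.26 ± 0.43 (SD, n = 4 each), a difference of -1.75 with a 95% confidence interval from -2.43 to -1.07 (limma adjusted p = 0.0472). The difference was -1.48 between the arrays with the fewest detected probes, knockout 1 and 4 against control 3, and -1.93 between the other 5.

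The call of Cyp7b1 lay close to the threshold. Without single arrays, its limma adjusted p was 0.134, 0.123, 0.186 and 0.123 (without knockout 1, 2, 3 and 4) and 0.0898, 0.245, 0.0311 and 0.163 (without control 1, 2, 3 and 4), so that the call was kept only without control 3. The size changed less, from -1.93 to -1.60 over these 8 fits. Hepatocytes express this gene in the liver, and 7 of the 11 hepatocyte markers, among them Alb, Apoa1 and Fabp1, were not above background on any array. The 4 measured ones had a median log2 difference of 0.61, and none passed. Ahsg lay higher on all 4 knockout arrays (1.60, limma adjusted p = 0.119), opposite in sign to Cyp7b1. Its kept probe was above background on 4 knockout arrays but on only 1 control array, and its other probe on none. The summed signal of the 4 measured hepatocyte markers ranged from 260.6 to 756.7 on the knockout and from 179.7 to 412.9 on the control arrays. None of the 13 macrophage markers passed, and their median log2 difference was -0.22, with 10 below 0, as Cyp7b1 was, and 3 above. Their summed signal ranged from 67270 to 93615 on the knockout and from 70638 to 103810 on the control arrays. This sum rests mostly on the brightest of them, such as Fcer1g, Lyz2, Adgre1 and Ctss. Of the 9 stellate cell markers 1 passed, Reln, with a log2 difference of -1.61, and the list had 7 below 0 and 2 above. The summed signal of the list was lower on every knockout array (42494 to 45315) than on any control array (45589 to 51686). That sum rests mostly on the brightest probes of Acta2, Dcn and Col3a1, which differed by 0.04, -0.21 and -0.21, each with groups that overlapped. The separation of the sums is therefore not one of each marker in the list. All 4 measured sinusoidal endothelial markers had differences below 0, as Cyp7b1 did (median -0.70), and none passed. Among them Stab2 had groups that did not overlap (-0.66), Lyve1 differed by -1.54 (limma adjusted p = 0.355, and 0.0365 without control 3, knockout 1 and knockout 4), and Kdr and Cdh5 were not above background on any array. Their summed signal ranged from 416.3 to 760.8 on the knockout and from 601.3 to 1120 on the control arrays. The 4 measured mesothelial markers had a median of 0.82 and none passed, Krt18 lay higher on all 4 knockout arrays (1.38), Krt19 was not above background, and the sums ranged from 526.8 to 1103 against 154.0 to 746.4. The part of these cell types in the Cyp7b1 difference was not tested.

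**Figure D1:**
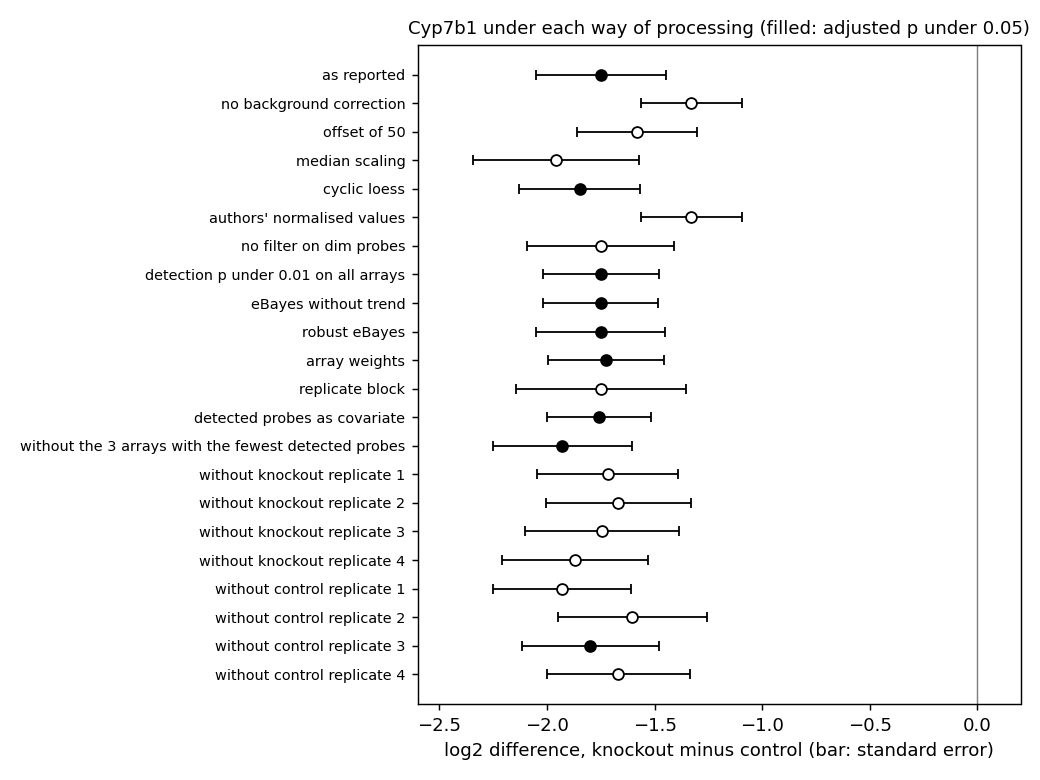
The log2 difference of Cyp7b1 (x axis, knockout minus control, with its standard error) under each way of processing (y axis), filled where the adjusted p was under 0.05. All values lie between -1.96 and -1.33, while the call is present under 8 of the 21 alternatives.

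The other oxysterol gene, Ch25h, makes an oxysterol that Cyp7b1 breaks down. It lay at 11.14, 10.35, 10.68 and 11.08 on the knockout arrays and at 10.05, 9.99, 10.95 and 9.90 on the control arrays. Control 3 stood among the knockout values, while the other 3 control arrays lay below all of them. The difference was 0.59 (95% confidence interval -0.06 to 1.23, limma adjusted p = 0.867), in the opposite direction to that of Cyp7b1.

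Enzymes of the early, isoprenoid part of synthesis were led by Idi1, the isomerase that readies isopentenyl units for chain building. Idi1 lay at 11.62, 11.33, 11.45 and 11.65 on the knockout and at 10.81, 10.97, 11.30 and 10.61 on the control arrays. The groups did not overlap, though knockout 2 and control 3 were close together. In the deposited signals before normalisation they did overlap, from 2417.6 to 3288.8 in the knockout and from 1973 to 2980.5 in the control. The difference was 0.59, or 1.50-fold (95% confidence interval of the log2 difference 0.18 to 1.00, limma adjusted p = 0.381). Hmgcs1, which makes the precursor of mevalonate, differed by 0.11 (13.32 ± 0.15 against 13.21 ± 0.24, SD, n = 4 each, interval -0.20 to 0.42). Pmvk, the kinase acting on phosphomevalonate, differed by -0.23 (interval -1.08 to 0.62). Fdps, which joins isoprenoid units to farnesyl diphosphate, had equal means, 10.60 ± 1.30 and 10.57 ± 1.89, with an interval from -2.10 to 2.14 that holds large changes in both directions.

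In the sterol part of the route, Lss, which folds epoxidised squalene into lanosterol, had the largest difference among the synthesis enzymes on this scale. It lay at 7.15, 8.65, 7.89 and 7.69 on the knockout and at 6.60, 7.02, 6.26 and 7.05 on the control arrays, and was above background on all 4 knockout and 3 of 4 control arrays. The groups did not overlap, with knockout 1 the lowest of its group. In the deposited signals before normalisation they did, from 163.6 to 513.6 in the knockout and from 186.8 to 360.7 in the control. The difference was 1.11, or 2.16-fold (95% confidence interval of the log2 difference 0.24 to 1.98, limma adjusted p = 0.494). It was 0.68 in the authors' normalised values (adjusted p = 0.519), where that of Hsd17b7 was larger, at 0.83.

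Nsdhl and Hsd17b7 encode partner enzymes that take the methyl groups off the sterol ring. The kept Nsdhl probe lay at 7.90, 6.94, 7.24 and 7.59 on the knockout and at 6.42, 6.45, 7.06 and 6.15 on the control arrays, so that only control 3 reached into the knockout range. Hsd17b7 lay at 11.52, 10.75, 10.89 and 10.83 on the knockout and at 10.12, 10.09, 10.77 and 9.45 on the control arrays, again with control 3 the only control value above the lowest knockout value. The differences were 0.90 for Nsdhl (95% confidence interval 0.14 to 1.65, limma adjusted p = 0.585) and 0.89 for Hsd17b7 (interval 0.22 to 1.56, adjusted p = 0.452). Before normalisation the signals of this Nsdhl probe overlapped, from 211.8 to 240.3 in the knockout and from 188 to 242.6 in the control, and its difference was 0.50 in the authors' normalised values, with limma adjusted p = 0.569. The other 3 Nsdhl probes were not above background on any array.

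Ebp, a sterol isomerase near the end of the route, lay at 5.57, 6.63, 5.88 and 5.28 on the knockout and at 6.54, 6.57, 5.28 and 7.85 on the control arrays. The groups overlapped, with a difference of -0.72 (95% confidence interval -1.92 to 0.49, limma adjusted p = 0.913). It was -0.29 without control 4, -1.15 without control 3 and -0.36 in the authors' normalised values. Sc5d, a sterol desaturase, differed by -0.31 (interval -0.92 to 0.30). Sqle, the squalene epoxidase, and Msmo1, the oxidase that begins methyl removal, differed by 0.03 and 0.00, with intervals from -1.28 to 1.34 and from -1.65 to 1.65. Of the 11 measured synthesis enzymes 8 lay above 0 and 3 below, and none passed. Among those above 0, Fdps, Hmgcs1, Sqle and Msmo1 changed sign under some other ways of processing. The share of all kept probes above 0 was not counted, so the split gives no direction for the enzymes.

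**Figure D2:**
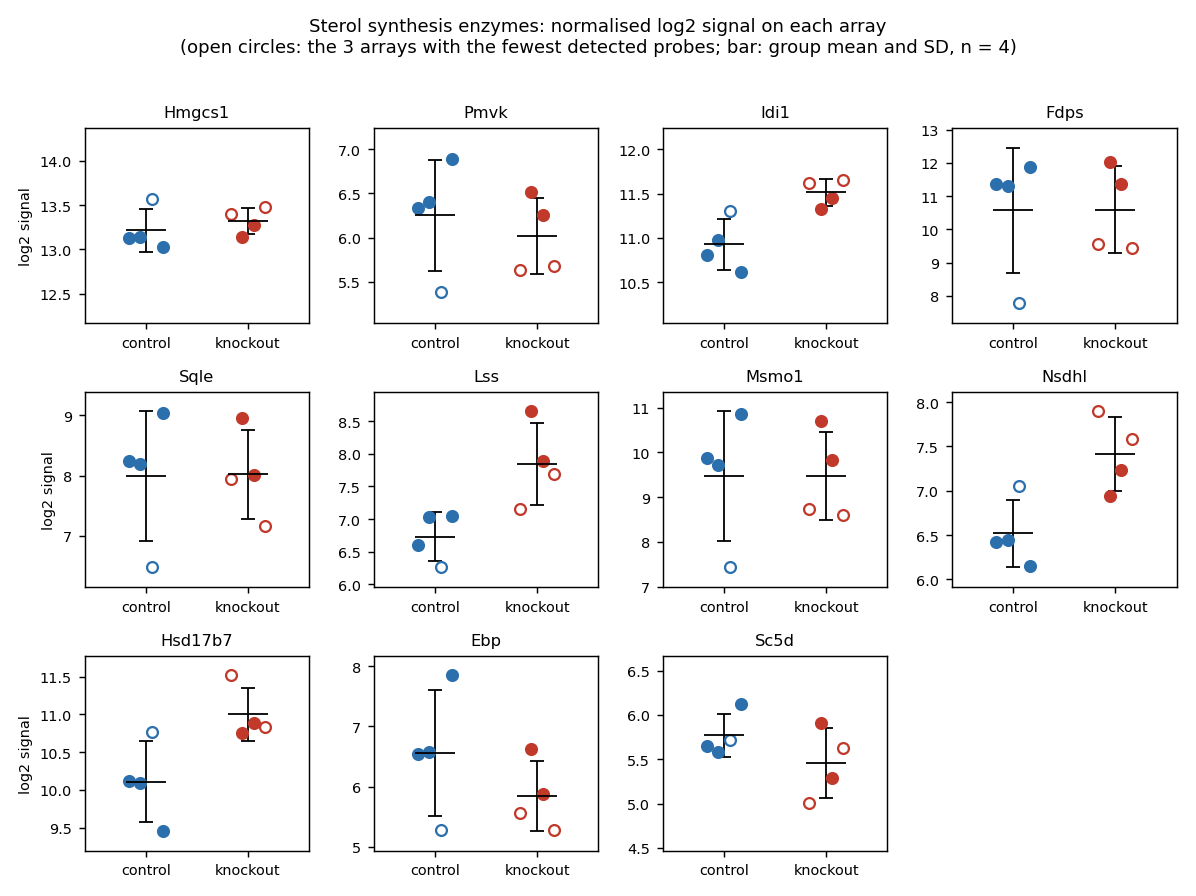
Normalised log2 signal (y axis) of the 11 measured synthesis enzymes on the control and knockout arrays (x axis), with the group mean and SD (n = 4) and open circles for knockout 1, knockout 4 and control 3. Idi1 and Lss separate the groups, Nsdhl and Hsd17b7 do so except for control 3, and Fdps, Sqle and Msmo1 spread far within both groups.

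The start-proximal sequences of these genes are shown because sterol enzymes are known to share a promoter design, in which SREBP acts together with NF-Y and Sp1. They are the 250 bases before the gene start on build GRCm38.p6, from RefSeq, for the 4 synthesis enzymes whose interval lay above 0 (Idi1, Lss, Nsdhl, Hsd17b7), for Hmgcs1, and for the regulator Insig1. Capitals mark an NF-Y box (CCAAT, or ATTGG on the other strand), an E-box (CACGTG) or a sterol regulatory element (TCACNCCAC), each searched on both strands.
Idi1, chr13:8885356-8885605, plus strand: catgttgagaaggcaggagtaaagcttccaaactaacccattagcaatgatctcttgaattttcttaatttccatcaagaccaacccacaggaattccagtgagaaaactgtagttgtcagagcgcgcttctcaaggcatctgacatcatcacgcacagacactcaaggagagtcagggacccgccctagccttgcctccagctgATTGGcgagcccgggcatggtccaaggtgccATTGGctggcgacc
Lss, chr10:76531355-76531604, plus strand: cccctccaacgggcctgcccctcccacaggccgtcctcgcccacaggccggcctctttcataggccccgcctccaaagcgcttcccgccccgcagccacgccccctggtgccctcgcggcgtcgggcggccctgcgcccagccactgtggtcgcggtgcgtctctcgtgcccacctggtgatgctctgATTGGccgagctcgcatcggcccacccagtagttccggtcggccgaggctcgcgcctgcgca
Nsdhl, chrX:72918271-72918520, plus strand: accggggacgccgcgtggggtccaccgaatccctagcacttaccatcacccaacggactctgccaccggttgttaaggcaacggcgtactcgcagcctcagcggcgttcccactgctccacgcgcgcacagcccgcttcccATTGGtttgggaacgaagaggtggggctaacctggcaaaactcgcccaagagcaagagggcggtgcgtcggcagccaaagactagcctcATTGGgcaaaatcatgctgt
Hsd17b7, chr1:169969206-169969455, minus strand: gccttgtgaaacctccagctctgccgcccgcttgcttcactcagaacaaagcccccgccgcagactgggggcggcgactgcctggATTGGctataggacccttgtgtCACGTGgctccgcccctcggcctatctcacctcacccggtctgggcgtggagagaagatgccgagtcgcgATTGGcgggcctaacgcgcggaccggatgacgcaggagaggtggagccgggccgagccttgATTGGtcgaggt
Hmgcs1, chr13:119690101-119690350, plus strand: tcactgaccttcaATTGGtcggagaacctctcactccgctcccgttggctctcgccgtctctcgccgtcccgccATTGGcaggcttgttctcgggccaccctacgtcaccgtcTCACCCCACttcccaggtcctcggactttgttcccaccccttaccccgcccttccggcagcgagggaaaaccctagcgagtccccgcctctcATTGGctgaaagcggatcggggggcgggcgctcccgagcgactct
Insig1, chr5:28071162-28071411, plus strand: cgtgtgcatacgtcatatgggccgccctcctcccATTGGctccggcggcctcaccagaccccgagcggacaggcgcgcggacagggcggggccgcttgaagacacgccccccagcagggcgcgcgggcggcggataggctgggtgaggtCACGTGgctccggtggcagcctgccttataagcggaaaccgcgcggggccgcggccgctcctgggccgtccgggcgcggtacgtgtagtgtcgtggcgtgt
All NF-Y boxes in these windows were in the ATTGG orientation, and those nearest the start lay 14 bases before it in Idi1, 62 in Lss, 20 in Nsdhl, 12 in Hsd17b7 and 45 in Hmgcs1, while the only one in Insig1 lay 216 bases before it. The only match to the sterol regulatory element as spelled above lay 137 bases before the start of Hmgcs1, between NF-Y boxes. Other spellings of this element were not searched. Hsd17b7 and Insig1 each held 1 E-box.

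Of the members, 24 had 32 such windows. Cyp7b1, Abcg1, Stard4, Sqle, Fdps and Fdft1 had none, so no motif was searched for them. An NF-Y box stood in 21 of the 32 (65.6%), against 33.8% of all 32851 windows. The Sp1 box (GGGCGG) stood in 71.9% against 32.7%, the E-box in 18.8% against 6.02%, and the sterol regulatory element in 1 window (3.12%) against 1.05%. The LXR direct repeat (AGGTCA, 4 free bases, AGGTCA) was in none of the member windows and in 0.0152% of all. By gene, the NF-Y box was present for 15 of 16 synthesis enzymes and 5 of 8 other members. These matches describe letters in the windows and say nothing of binding in these cells.

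Among the regulators, Insig1, which retains Scap in the endoplasmic reticulum, gave values that differed between its probes. Probe ILMN_2895388 lay at 8.74, 9.57, 9.01 and 8.66 on the knockout and at 9.91, 10.08, 9.18 and 10.68 on the control arrays, with control 3 the only control value below the highest knockout value. Its difference was -0.97 (95% confidence interval -1.75 to -0.18, limma adjusted p = 0.551). Probe ILMN_2620965 lay at 7.38, 6.11, 6.01 and 7.53 on the knockout and at 5.76, 6.24, 7.52 and 5.73 on the control arrays. Its groups overlapped, with a difference of 0.45 (interval -0.74 to 1.64), and the third kept probe, ILMN_2606693, differed by 0.23 (interval -0.35 to 0.82). No direction can therefore be given for Insig1 as a gene.

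Srebf2, the master regulator of the route, lay at 7.98, 9.18, 9.50 and 9.17 on the knockout and at 9.63, 9.43, 8.84 and 9.20 on the control arrays. Knockout 1 was the lowest of the 8 and the remaining values overlapped, with a difference of -0.32 (95% confidence interval -1.13 to 0.50, limma adjusted p = 0.913). Without knockout 1 it was 0.0074. Its escort Scap differed by 0.20 (interval -0.34 to 0.73), and the 2 kept probes of Insig2 by 0.06 and 0.09. None of the 4 measured regulators passed.

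Among transport genes, Stard4, a carrier of cholesterol between membranes and a known SREBP-2 target, lay at 10.39, 9.32, 9.79 and 10.19 on the knockout and at 9.15, 9.07, 10.21 and 8.63 on the control arrays. Control 3 again stood with the knockout arrays, and the difference was 0.66 (95% confidence interval -0.18 to 1.51, limma adjusted p = 0.913). The exporter Abcg1, which loads cholesterol onto lipoproteins, lay at 5.59, 6.90, 6.04 and 5.55 on the knockout and at 6.66, 7.38, 5.97 and 7.96 on the control arrays. The groups overlapped, and the probe was above background on 2 of 4 knockout and 3 of 4 control arrays. Its difference of -0.97 had an interval from -2.08 to 0.14 (adjusted p = 0.891), and it was -0.49 in the authors' normalised values. Abca1, which starts cholesterol export, differed by 0.15 (9.14 ± 0.55 against 8.99 ± 0.71, SD, n = 4 each, interval -0.78 to 1.08), and it was -0.022 with median scaling. Both exporters are LXR targets, and neither passed.

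**Figure D3:**
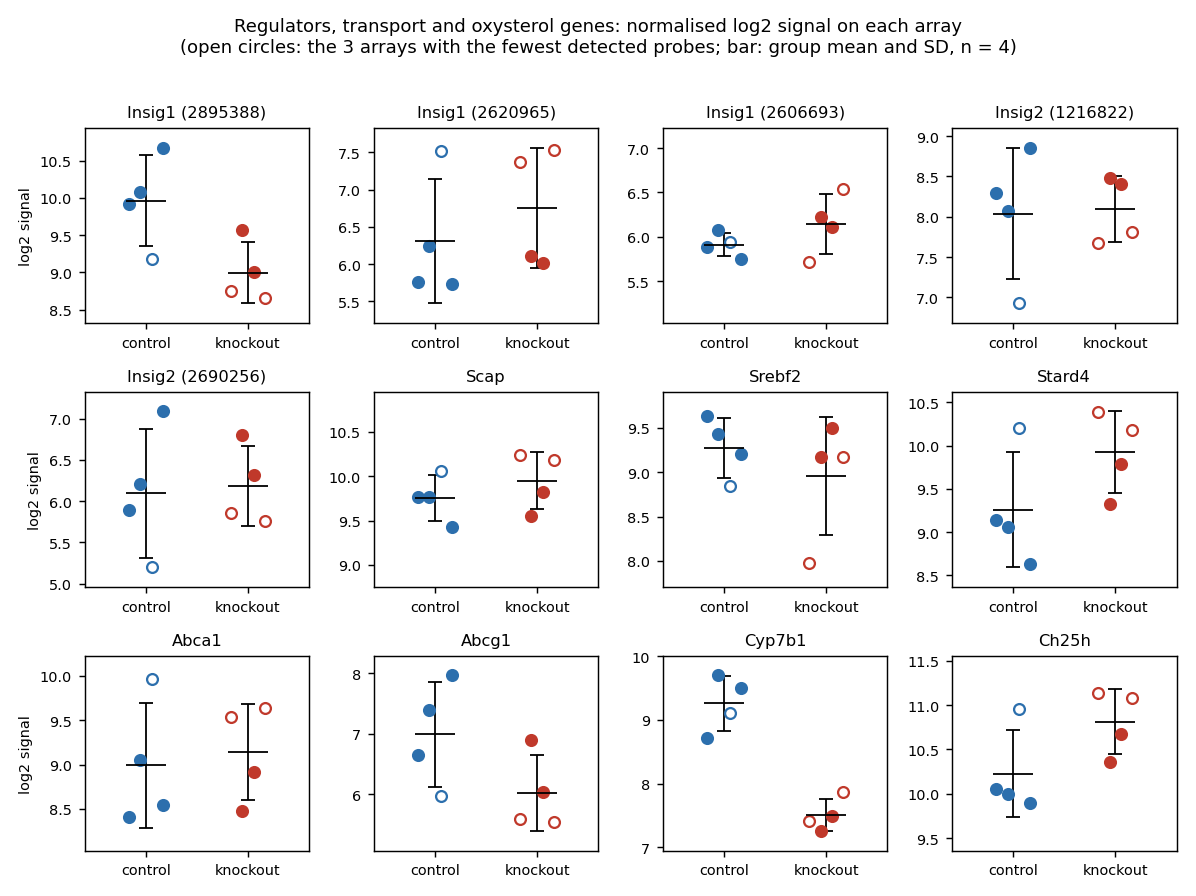
Normalised log2 signal (y axis) of the 12 kept probes for regulators, transport and oxysterol genes on the control and knockout arrays (x axis), with the group mean and SD (n = 4) and open circles for knockout 1, knockout 4 and control 3. Only Cyp7b1 separates the groups, and 3 Insig1 probes differ in direction.

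Much of the spread within each group followed the number of detected probes. On 11 of the 23 member probes (47.8%), knockout 1 and 4 lay below knockout 2 and 3 and control 3 lay below the other controls, an order found at 34.4% of all kept probes. On 8 member probes (34.8%) both orders were turned round, as at 42.4% of all kept probes. The first set held Fdps, Sqle, Msmo1, Lss, Ebp, Pmvk, Insig2, Srebf2, Abcg1 and 1 Insig1 probe, and the second held Hmgcs1, Idi1, Nsdhl, Scap, Stard4, Abca1, Ch25h and another Insig1 probe. Synthesis enzymes thus stood on both sides, 6 in the first set and 3 in the second.

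Fdps had the widest spread of the measured members. Of the probes in the reverse order, Hmgcs1, Idi1 and Scap had SDs of at most 0.32, while others spread more. Insig1 probe ILMN_2620965 had SDs of 0.81 in the knockout and 0.84 in the control, and Abca1 had 0.55 and 0.71. Fdps lay at 9.55, 12.03, 11.36 and 9.43 on the knockout and at 11.35, 11.30, 7.77 and 11.88 on the control arrays. Its knockout arrays with few detected probes lay 1.73 above control 3, and the other knockout arrays 0.19 above the other controls. Msmo1 followed the same order, at 8.74, 10.70, 9.83 and 8.60 against 9.86, 9.72, 7.43 and 10.85. Cyp7b1 was among the 4 member probes with neither order.

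**Figure D4:**
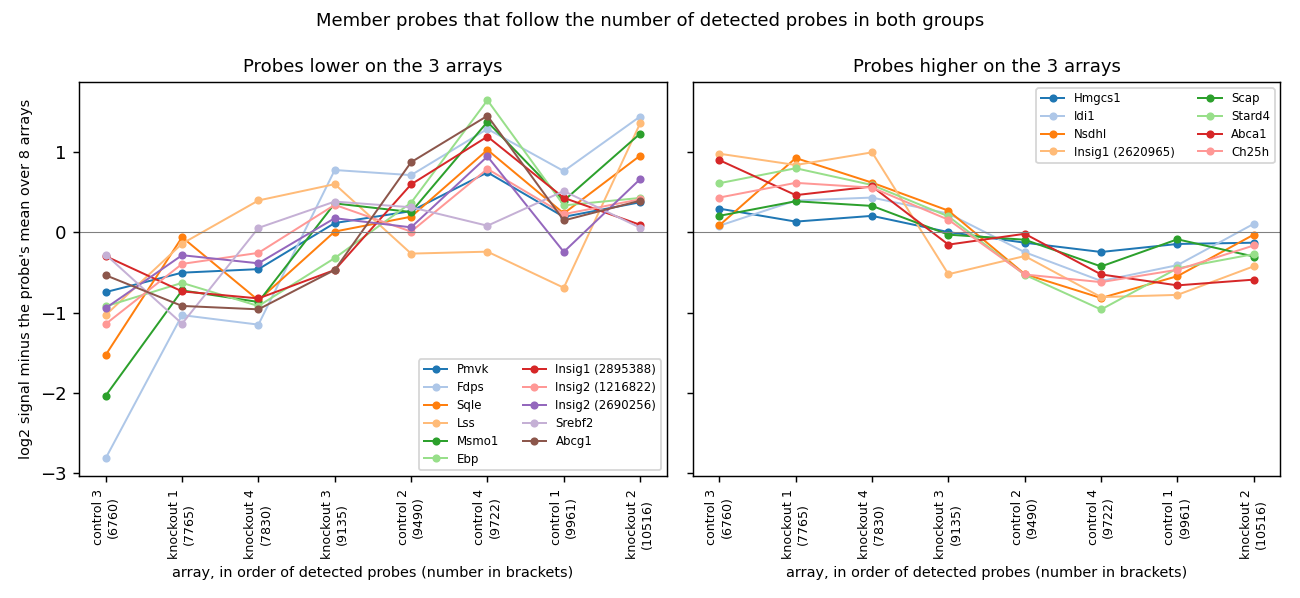
Log2 signal minus each probe's mean (y axis) on the 8 arrays ordered by their number of detected probes (x axis), for the 11 member probes that were lower and the 8 that were higher on control 3, knockout 1 and knockout 4 within both groups. Fdps on control 3 lies lowest, and the 2 panels run in opposite directions.

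When each array's count of detected probes entered the same limma fit as a covariate, 7 of 23 member probes (30.4%) passed, against 7.1% of all kept probes. Of these, 5 were higher (4.26% over all kept probes), namely Lss, Idi1, Nsdhl, Hsd17b7 and Ch25h, and 2 were lower (2.84%), Cyp7b1 and Insig1 probe ILMN_2895388. The differences changed little and their errors shrank. Lss differed by 1.16 (95% confidence interval 0.66 to 1.66, adjusted p = 0.0107), Idi1 by 0.56 (0.32 to 0.81, adjusted p = 0.0116), Nsdhl by 0.85 (0.45 to 1.26, adjusted p = 0.0183) and Hsd17b7 by 0.85 (0.42 to 1.28, adjusted p = 0.0243). These 4 synthesis enzymes thus rose in this fit, and none of the 11 passed lower. Cell type markers also passed in it, 3 higher and 4 lower of the 34 measured. Those higher were the hepatocyte marker Ahsg (1.58, adjusted p = 0.00579), above background on only 1 control array, and the mesothelial markers Krt18 (1.47, 0.00661) and Krt8 (0.71, 0.0474). Those lower were Lyve1 (-1.45, 0.000638), the macrophage markers Cd14 (-1.03, 0.0243) and Clec4f (-1.38, 0.0294), and the stellate cell marker Reln (-1.64, 0.000113). Their part in the differences of the members was not tested.

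In the same fit Ch25h differed by 0.53 (95% confidence interval 0.27 to 0.80, adjusted p = 0.0201), Cyp7b1 by -1.76 (-2.29 to -1.23, adjusted p = 0.00131) and the Insig1 probe by -0.91 (-1.32 to -0.50, adjusted p = 0.0135). Stard4 was just above the threshold, at 0.59 (0.24 to 0.95, adjusted p = 0.0517), and Abcg1 had -0.90 (-1.50 to -0.29, adjusted p = 0.0763). Hmgcs1 had 0.09 (-0.08 to 0.25), so a difference as large as that of Idi1 lay outside its interval. The covariate is itself measured on these arrays, and the members and the fit were chosen with earlier results of these data known.

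Without control 3, knockout 1 and knockout 4, 1.79% of all kept probes passed (0.912% higher, 0.88% lower) and 1 member probe did, Cyp7b1, lower (-1.93, limma adjusted p = 0.0274). Lss then differed by 1.38 (adjusted p = 0.0844), Hsd17b7 by 0.93 (0.127), Idi1 by 0.59 (0.163), Nsdhl by 0.75 (0.244) and the Insig1 probe by -0.93 (0.206). Ch25h differed by 0.53 (limma adjusted p = 0.279) and Stard4 by 0.61 (0.396). Over all 23 member probes, 17 had the same sign between the 3 arrays with few and the 5 with many detected probes, 12 above 0 and 5 below. The share over all kept probes was not counted, and control 3 alone stood for the controls with few detected probes. This count therefore gives no result about the members.

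**Figure D5:**
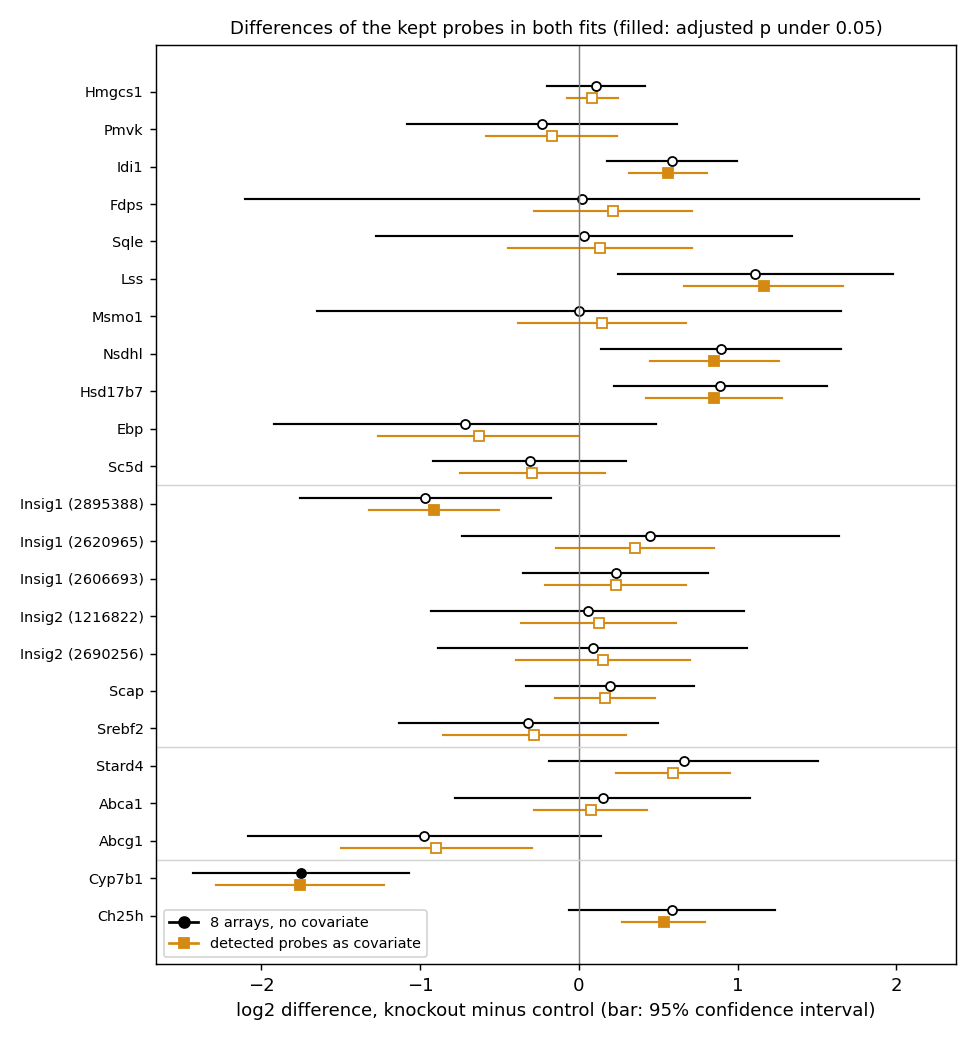
Log2 difference, knockout minus control, with its 95% confidence interval (x axis) for the 23 kept member probes (y axis), in the fit of 8 arrays without a covariate (black circles) and with the detected-probe count as covariate (orange squares), filled where the adjusted p was under 0.05. Filled symbols number 1 without and 7 with the covariate, and Lss has the largest positive difference in both fits.

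Of 35 other genes of cholesterol metabolism, 24 had a probe and 16 were measured, and none passed in either direction in the fit without a covariate (median log2 difference 0.08, 9 above 0 and 7 below). Cyp27a1, the mitochondrial enzyme that makes another oxysterol and shares the alternative bile acid route with Cyp7b1, had the smallest p. Its 3 kept probes differed by -1.34, -0.82 and -1.47, with limma adjusted p-values of 0.375, 0.461 and 0.913. At the first, the values were 6.59, 8.15, 8.23 and 7.94 in the knockout and 9.01, 9.28, 8.58 and 9.41 in the control arrays. The groups did not overlap at the first pair of probes. With the covariate all 3 passed, at adjusted p-values of 0.0201, 0.00390 and 0.0116. None did without control 3, knockout 1 and knockout 4, at limma adjusted p-values of 0.0754, 0.0972 and 0.166.

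Apoe, the lipoprotein component that accepts exported cholesterol, lay at 8.79, 10.23, 8.23 and 7.86 on the knockout and at 10.80, 11.29, 8.67 and 12.41 on the control arrays. Control 3 lay within the knockout range and the other controls above it, with a difference of -2.01 (95% confidence interval -3.78 to -0.25, limma adjusted p = 0.617, and 0.0164 with the covariate). Without control 3, knockout 1 and knockout 4 the difference was -2.27 (limma adjusted p = 0.147). Cav1, the caveolar coat protein that binds cholesterol, differed by 0.55 (adjusted p = 0.558), and the 3 kept probes of the lipoprotein receptor Vldlr by 0.45, 0.52 and 0.62 (adjusted p = 0.913, 0.891 and 0.913). With the covariate 2 of the 16 genes passed, Cyp27a1 and Apoe, both lower, with 4 of the 21 kept probes, where 7.1% of all kept probes passed and 2.84% passed lower.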

How the data were processed

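Total RNA of 4 IL15Ra-knockout and 4 control samples was measured on the Illumina MouseRef-8 v2.0 BeadChip. The authors deposited, per the file headers, a bead signal as a linear intensity, not normalised or background-subtracted, and a detection p-value for each probe and array. The submitters' processing notes name GenomeStudio, version 3. Another deposited table gives the same arrays as intensity after quantile normalisation by the authors, per the labels' design text. Probe genes came from the platform annotation, which named 23978 of the probes and left 1719 unnamed here, and looking up Entrez numbers in the GRCm38.p6 gene table changed 0 symbols.

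Here signals were processed with neqc of limma 3.58.1 (R 4.3.3), which estimates background from detection p-values where no control probes are given, with an offset of 16. Groups came from the titles. The group difference was tested by lmFit and trended eBayes on the log2 scale, on probes with a detection p under 0.05 on 4 or more arrays, with no block. A list's median takes the brightest kept probe of each gene. The test was run on simulated data with noise drawn independently for each probe and array. Such data lack the shared order of the arrays described above, so the run does not cover it. Members, lists, alternatives and the naming rule were chosen with earlier results of these data known. That rule gives array values for members that passed, members whose groups do not overlap and the 8 further members with the largest absolute difference. Fdps, Msmo1, Cyp27a1 and Apoe were added to these after their values were seen. Of the other pathway genes, those passing and up to 4 with the smallest p were named. Precision is limited by the number of arrays.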

Additional observations from a re-analysis of the deposited data

Results flagged for a closer look

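2 values stood far from the other 3 of their group, both on control 3, the array with the fewest detected probes. Fdps lay at 7.77 there, against 11.30 to 11.88 on the other control arrays. Ch25h lay at 10.95 there, against 9.90 to 10.05 on the others. In all, 46 sets of 4 values were examined, and chance flags about 1 in 20 such sets.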

How the results depend on the processing

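The number of probes past the threshold over the whole table was 50 (22 higher, 28 lower), and 108 (60 and 48) with median scaling, 95 (52 and 43) with cyclic loess, 805 with array weights, 670 with the detected probes as a covariate, 169 without control 3, knockout 1 and knockout 4, 17 where every array had to reach a detection p under 0.01, 22 at an adjusted p under 0.01, and 22 to 123 with each array left out in turn. Of the member probes 8 passed with array weights and 7 with the covariate. None passed without background correction, with an offset of 50, with median scaling, with the authors' normalised values, without the filter or at an adjusted p under 0.01 (0 in each), where limma's adjusted p of Cyp7b1 was 0.0580, 0.0553, 0.0680, 0.0584 and 0.101 at the first 5 and 0.0472 at the last. Over the array left out, 0 to 1 passed. Cyp7b1 passed under 8 of 21 alternatives, with adjusted p-values from 0.00131 to 0.524, and was lower under all 21. The median of the synthesis enzymes ranged from -0.33 to 0.46 with each array left out. That of the other members was -0.16 with median scaling, which moved the median of all kept probes from 0.03 to -0.10, and ranged from -0.32 to 0.068 with each array left out. The cause was not tested.

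With the replicate number as a block 3 probes passed (0 higher, 3 lower) and 0 members, with an adjusted p of 0.524 for Cyp7b1. Same-numbered arrays had correlations of their deviations of -0.66, 0.60, -0.75 and -0.82, and 0 of the 4 knockout arrays correlated best with its own number. Each negative value pairs an array with few detected probes with one with many. Whether same-numbered samples share a day or batch therefore cannot be told from these correlations. Of 471 probe values under the alternatives, 38 changed sign, all in 8 probes of Abca1, Fdps, Hmgcs1, Insig2, Msmo1, Sqle and Srebf2, none of which passed.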
